A study of Homo sapiens with 12 samples.

Results

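The 10 genes that control the peroxidation of membrane lipids, GPX4, AIFM2, GCH1, DHODH, VKORC1L1, ACSL4, LPCAT3, PLA2G6, POR and SAT1, were described in 2 human ovarian cancer cell lines with and without ovarian cancer ascites. These genes were listed by name for their role in lipid peroxidation and were found among the 19251 genes listed in every library by matching Ensembl identifiers to symbols. All 10 passed the filter on low values. Expression was measured by RNA sequencing of 12 libraries in 4 groups of 3: CAOV3 control, CAOV3 ascites, TOV21G control and TOV21G ascites. Per the labels, CAOV3 is an epithelial line of high grade serous type and TOV21G an epithelial line of clear type, both with genotype WT. Cells of all groups grew in DMEM with 10% serum and antibiotics. The ascites groups received 150 µL of ovarian cancer ascites, fluid that gathers in the peritoneal cavity, in 1.5 mL of medium (10%) for 16 h. The control groups are labelled as untreated, and the labels describe no vehicle for them. Each line is a single established line, so a difference between the lines is a difference between 2 lines and not between tumour types.

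Ferroptosis is a form of cell death in which iron-dependent oxidation of polyunsaturated phospholipids breaks cell membranes. Cells hold it back by reducing lipid peroxides with glutathione, through GPX4, and by making antioxidants that trap lipid radicals in membranes, such as reduced coenzyme Q, tetrahydrobiopterin and reduced vitamin K. They favour it by loading phospholipids with polyunsaturated fatty acids and by supplying electrons that start the oxidation. Ascites is rich in lipids, and ovarian cancer cells spread within it.

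Values are normalised read counts, that is, the authors' read count of a gene divided by a size factor of the library, and are given per library in the order replicate 1, 2 and 3. The reads counted to the 19251 listed genes ranged from 26697609 to 34491304 per library. Differences are limma log2 fold changes of the value plus 1, with their 95% interval, and a gene was called at a Benjamini-Hochberg adjusted p under 0.05 over 17616 tested genes. The labels do not say that replicates were separate cultures, so the p-values measure the spread between these libraries, which may be technical. The fit took 1 spread per gene over both lines, so the intervals of the 2 ascites responses have equal width for a gene. They do not show where the spread differed between the lines, as for POR (SD of log2 values within a group 0.130 in TOV21G and 0.043 in CAOV3). These are bulk samples, in which fewer cells of a type and less RNA per cell cannot be told apart. The 6 epithelial markers had reads in every library but were lower in TOV21G, with EPCAM at 692 to 839 normalised counts in CAOV3 and 342 to 423 in TOV21G, and CDH1 at 266 to 455 and only 6.29 to 17.3. KRT7, KRT8, KRT18 and KRT19 ranged from 15438 (KRT19) to 83756 (KRT8) in CAOV3 and from 253 (KRT19) to 6105 (KRT18) in TOV21G. Of the fibroblast markers, COL1A2 was at 9491 to 11099.6 in TOV21G and at most 2.97 in CAOV3, and LUM at 3532 to 4604 in CAOV3 and at most 4.97 in TOV21G. The part of these marker differences in the results was not tested. PAX8 and WT1, usual markers of serous tumours, reached at most 25.6 and 8.18 in CAOV3, against at least 6797 and 219 in TOV21G, so CAOV3 lacked these defining markers at the level seen in the other line. Of 6 leukocyte markers 2 were in the files. CD14 was at 8.39 to 89.3 normalised counts and LYZ at 0 in TOV21G and 30.1 to 50.5 in CAOV3, with no higher sum in ascites than in control libraries of CAOV3 (101 to 125 against 117 to 134) and overlapping sums in TOV21G (11.6 to 20.4 against 8.39 to 13.0). The haemoglobin genes of red blood cells were not analysed here.

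The promoters of SAT1, AIFM2 and ACSL4 are shown because these members differed most between the lines. Each line gives the 250 bases upstream of the RefSeq start (GRCh38.p14), 5′ to 3′ on the gene's strand, with capitals for matches to the motifs searched. The SAT1 window lies at chrX:23782923-23783172 on the plus strand, the AIFM2 window at chr10:70132826-70133075 on the minus strand and the ACSL4 window at chrX:109733258-109733507 on the minus strand.
SAT1: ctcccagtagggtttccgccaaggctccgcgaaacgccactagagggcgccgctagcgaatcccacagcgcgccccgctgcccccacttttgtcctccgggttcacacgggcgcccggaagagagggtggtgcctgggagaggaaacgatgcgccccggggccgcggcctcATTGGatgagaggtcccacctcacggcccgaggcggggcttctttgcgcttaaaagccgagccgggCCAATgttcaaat
AIFM2: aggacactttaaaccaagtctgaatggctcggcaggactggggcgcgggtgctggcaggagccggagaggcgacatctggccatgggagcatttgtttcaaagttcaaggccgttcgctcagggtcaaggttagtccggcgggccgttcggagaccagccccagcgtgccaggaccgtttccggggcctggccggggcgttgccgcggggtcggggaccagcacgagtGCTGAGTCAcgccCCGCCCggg
ACSL4: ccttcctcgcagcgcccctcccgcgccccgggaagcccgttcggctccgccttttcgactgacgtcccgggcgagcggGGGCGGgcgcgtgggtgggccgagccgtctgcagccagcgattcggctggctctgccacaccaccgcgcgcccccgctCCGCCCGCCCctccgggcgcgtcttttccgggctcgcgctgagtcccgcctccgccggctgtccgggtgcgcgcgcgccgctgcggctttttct

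The SAT1 window held CCAAT, the letters of a CCAAT box, at 79 to 75 and at 13 to 9 bases before the start, and no GGGCGG. The AIFM2 window held TGACNNNGC, the core letters of an antioxidant response element, at 22 to 14 bases before the start, followed by GGGCGG, the letters of a GC box, at 9 to 4. The ACSL4 window held GGGCGG at 172 to 167, 94 to 89 and 90 to 85 bases, the last 2 matches overlapping. The ACSL4 window was the richest in G and C of the 3, at 77.2% with 42 CpG dinucleotides. The SAT1 and AIFM2 windows had 66.4% with 25 and 66.8% with 23, and the medians over all 35116 RefSeq promoters were 58.0% and 11. Entries were matched for 8 of the 10 members, as 10 windows, and GCH1 and POR had none. The 7 motifs were searched on both strands. GGGCGG was in windows of 7 members (42.6% of all promoters), CCAAT in windows of 5 (GPX4, DHODH, LPCAT3, PLA2G6 and SAT1, 32.0% of all) and TGACNNNGC in those of AIFM2 and VKORC1L1 (10.9%). TATAAA (10.7%), TGACGTCA (1.65%), TTCNNNGAA (6.57%) and TCACNCCAC (0.883%) were in no member's window. The matches describe letters only.

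Among the protecting genes, 4 of 5 were lower in untreated TOV21G than in untreated CAOV3 and 1, GCH1, did not pass the test. Of the 5 promoting or remodelling genes ACSL4 and SAT1 were higher, LPCAT3 and POR lower, and PLA2G6 did not pass the test. Together 2 members were higher in TOV21G and 6 lower. Across all tested genes 82.2% were called between the lines, 40.8% higher and 41.4% lower, so a share of 8 in 10 is near the background and is no result about these genes as a group. The libraries of the untreated lines did not overlap for 9 of the 10 members, all but POR, and for 82.6% of all genes. The median log2 difference was -0.29 over the members and -0.02 over all genes tested.

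AIFM2 (ENSG00000042286, also known as FSP1) encodes an oxidoreductase that regenerates the reduced forms of coenzyme Q and vitamin K outside the mitochondria. It lies at chr10:70098223-70132934 on the minus strand (positions here and below are those of GENCODE 29 on GRCh38). AIFM2 had 2147, 2159 and 2133 normalised counts in the CAOV3 controls and 214, 238 and 228 in the TOV21G controls. No TOV21G library came near a CAOV3 library. The level was 9.45-fold lower in TOV21G (log2 -3.24, 95% interval -3.42 to -3.06, limma adjusted p 2.71e-13). A smaller difference in size was found for 85.6% of all genes tested. In ascites AIFM2 stood at 2037, 1987 and 2258 in CAOV3 and at 238, 198 and 255 in TOV21G, overlapping the controls in both lines. AIFM2 shares 11 exonic bases with MACROH2A2 on the other strand, and the strandedness of the counting is not given in the sources used here. MACROH2A2 went the other way between the control groups, at 523 ± 23.0 in CAOV3 and 2381 ± 199 in TOV21G (SD, n = 3).

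GPX4 (ENSG00000167468, chr19:1103926-1106791, plus strand) encodes the selenoenzyme that reduces phospholipid hydroperoxides with glutathione. Its values were 8338, 8674 and 7867 in the CAOV3 controls, 8129, 8436 and 8449 in CAOV3 with ascites, 5267, 4572 and 4805 in the TOV21G controls and 4555, 5004 and 4285 in TOV21G with ascites. Every TOV21G library was below every CAOV3 library. The untreated lines differed 1.70-fold (log2 -0.77, interval -0.90 to -0.63, limma adjusted p 5.55e-08). The ascites response was 0.01 (interval -0.13 to 0.14) in CAOV3 and -0.08 (interval -0.22 to 0.05) in TOV21G, neither called.

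VKORC1L1 (ENSG00000196715, chr7:65873166-65959563, plus strand) encodes a vitamin K epoxide reductase that yields the reduced vitamin. It had 4764, 4788 and 4986 in CAOV3 controls and 3037, 2885 and 3108 in TOV21G controls. The groups were separate, and the level in TOV21G was 1.61-fold lower (log2 -0.69, interval -0.78 to -0.60, limma adjusted p 1.74e-09). Ascites values overlapped the controls in each line, at 4763 to 5117 in CAOV3 and 3017 to 3149 in TOV21G, and the response was 0.03 in each (intervals -0.06 to 0.11 and -0.06 to 0.12).

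DHODH (ENSG00000102967, chr16:72008588-72027664, plus strand) encodes the mitochondrial enzyme of pyrimidine synthesis that passes electrons to coenzyme Q. The CAOV3 controls held 766, 785 and 744 normalised counts and the TOV21G controls 639.5, 564 and 558. DHODH was thus 1.30-fold lower in TOV21G (log2 -0.38, interval -0.51 to -0.26, limma adjusted p 3.74e-05). With ascites it stood at 871, 843 and 893 in CAOV3, all 3 above the controls, with a log2 difference of 0.18 (interval 0.06 to 0.31). That difference did not pass the threshold (limma adjusted p 0.181). In TOV21G the ascites libraries held 619, 666 and 622, of which 2 lay under the highest control (log2 0.12, interval -0.01 to 0.24, adjusted p 0.581).

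GCH1 (ENSG00000131979, chr14:54842008-54902852, minus strand) encodes the first and rate-limiting enzyme of tetrahydrobiopterin synthesis. It was at 503, 452 and 516 in CAOV3 controls and slightly above all of these in TOV21G controls, at 528, 528 and 542. The difference of 0.12 (interval -0.02 to 0.27) was not called (limma adjusted p 0.108). With ascites the CAOV3 values were 439.8, 399.8 and 413, all below the controls, with a log2 difference of -0.23 (interval -0.37 to -0.08). It also missed the threshold (limma adjusted p 0.137). The TOV21G ascites values of 482, 531 and 541 overlapped the controls, at -0.04 (interval -0.19 to 0.10).

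**Figure D1:**
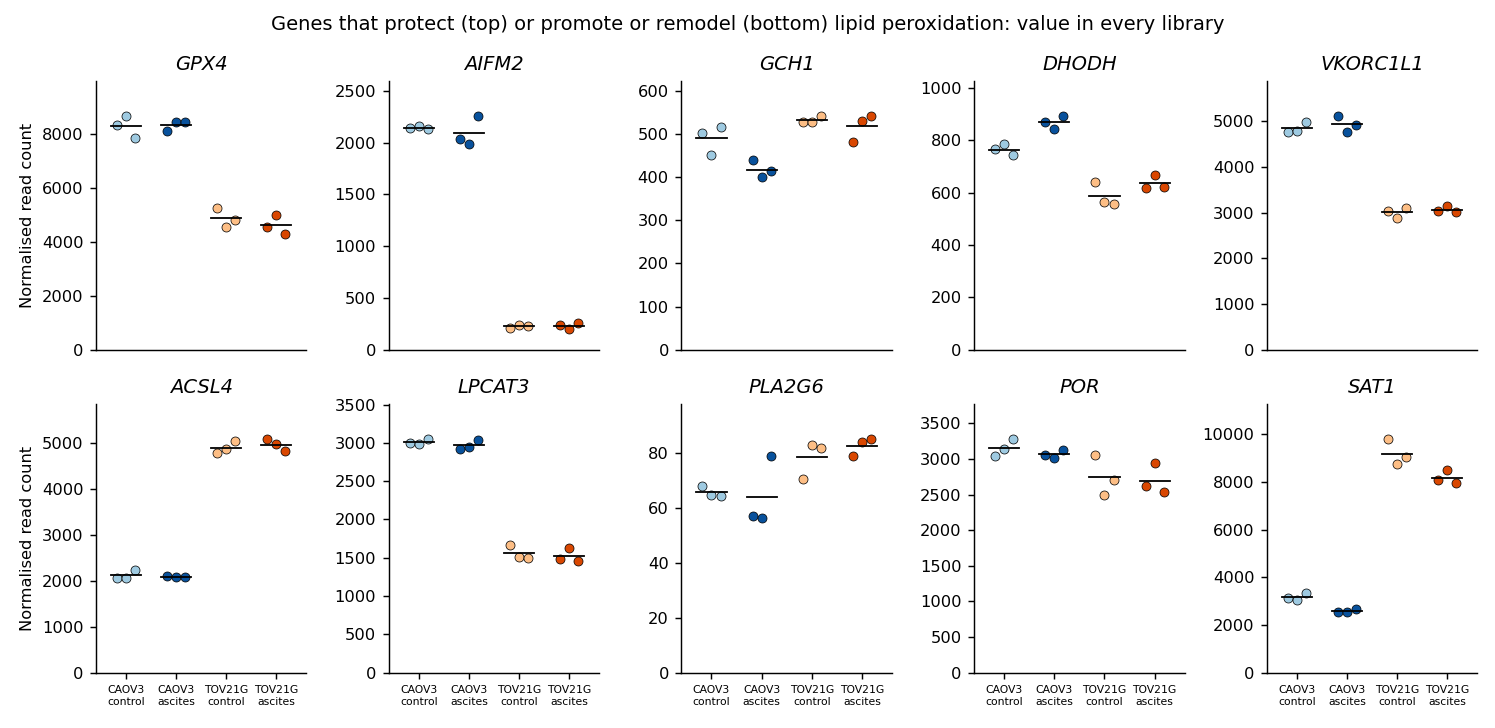
Normalised read count of each of the 10 genes in every library, with protecting genes in the top row and promoting or remodelling genes in the bottom row; points are libraries, bars are means of 3, and each axis starts at 0. AIFM2 separates the lines most (2133 to 2159 against 214 to 238 in controls), and the SAT1 ascites points lie below the controls in both lines.

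Of the genes that favour peroxidation, SAT1 and ACSL4 were the higher ones in TOV21G. SAT1 (ENSG00000130066, chrX:23783173-23786226, plus strand) encodes the acetyltransferase that starts the breakdown of spermidine and spermine, and its activity is known to raise lipid peroxidation. The CAOV3 controls held 3139, 3054 and 3344 normalised counts and the TOV21G controls 9799, 8733 and 9041. The level was 2.89-fold higher in TOV21G (log2 1.53, interval 1.42 to 1.64, limma adjusted p 3.05e-12).

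SAT1 was the only member called in an ascites comparison. In CAOV3 it fell to 2525, 2547 and 2669 with ascites, all 3 below the lowest control, a 1.23-fold lower level (log2 -0.30, interval -0.41 to -0.19, limma adjusted p 0.00653). Among all genes tested 1.73% were called in CAOV3 with 0.636% higher and 1.1% lower. The TOV21G ascites libraries held 8086, 8479 and 7968, also below all 3 controls, with a log2 difference of -0.17 (interval -0.27 to -0.06). That difference did not pass the test (limma adjusted p 0.280). The response did not differ detectably between the lines (TOV21G minus CAOV3 0.13, interval -0.02 to 0.29, adjusted p 0.475). The CAOV3 call held whichever of the 12 libraries was left out (log2 -0.33 to -0.26, highest adjusted p 0.0424). It was lost with the replicate number as a block in the fit (limma adjusted p 0.0573).

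ACSL4 (ENSG00000068366, chrX:109624244-109733403, minus strand) encodes the acyl-CoA synthetase that activates arachidonic and adrenic acid for entry into phospholipids. The CAOV3 controls held 2058, 2057 and 2242 and the TOV21G controls 4772, 4872 and 5046, with no overlap. ACSL4 was 2.31-fold higher in TOV21G (log2 1.21, interval 1.12 to 1.30, limma adjusted p 5.04e-12). With ascites it had 2099, 2076 and 2077 in CAOV3 and 5086, 4987 and 4817 in TOV21G, each group within or next to the control values. The responses were -0.02 (interval -0.11 to 0.07) and 0.02 (interval -0.07 to 0.11). ACSL4 shares 78 exonic bases with KCNE5 on the same strand, a gene with at most 10.1 normalised counts on average in any group.

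LPCAT3 (ENSG00000111684, chr12:6976186-7018510, minus strand) encodes the acyltransferase that inserts polyunsaturated chains into lysophospholipids, the step after ACSL4. It had 3003, 2987 and 3049 in CAOV3 controls and 1669, 1504 and 1494 in TOV21G controls. LPCAT3 therefore differed in the opposite direction to ACSL4, 1.94-fold lower in TOV21G (log2 -0.95, interval -1.06 to -0.84, limma adjusted p 5.52e-10). In ascites it ranged from 2925 to 3031 in CAOV3 and from 1454 to 1627 in TOV21G, overlapping the controls (log2 -0.02, interval -0.13 to 0.09, and -0.03, interval -0.14 to 0.08). LPCAT3 shares 3100 exonic bases, 65.6% of its exons, with EMG1 on the other strand, so its count is uncertain. EMG1 itself was listed at 760 ± 53.9 in CAOV3 controls and 499 ± 6.50 in TOV21G controls (SD, n = 3).

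POR (ENSG00000127948, chr7:75899200-75986855, plus strand) encodes cytochrome P450 oxidoreductase, which hands electrons to oxygen-activating enzymes. Its control values were 3043, 3139.8 and 3281 in CAOV3 and 3050.2, 2499 and 2701 in TOV21G. The highest TOV21G control reached into the CAOV3 range. The difference of -0.20 (interval -0.35 to -0.05) was called (limma adjusted p 0.0151), but not without CAOV3 control 3 (adjusted p 0.0594) or without TOV21G control 2 (adjusted p 0.0764). Ascites values of 3019 to 3132 in CAOV3 and 2531 to 2941 in TOV21G overlapped the controls (log2 -0.04, interval -0.19 to 0.11, and -0.03, interval -0.17 to 0.12). POR shares 19 exonic bases with TMEM120A on the other strand and 73 with MIR4651.

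PLA2G6 (ENSG00000184381, chr22:38111495-38205690, minus strand) encodes a calcium-independent phospholipase that cleaves fatty acids, oxidised ones included, from phospholipids. In that respect it is known to act against ferroptosis as well as in membrane remodelling. It was the lowest member, at 68.1, 64.5 and 64.3 in CAOV3 controls and 70.5, 82.8 and 81.6 in TOV21G controls. The values did not overlap, but the difference of 0.25 (interval -0.08 to 0.57) was not called (limma adjusted p 0.144). In ascites it had 56.9, 56.2 and 78.8 in CAOV3 and 78.7, 84.1 and 85.0 in TOV21G. Its intervals were wide (-0.38 to 0.27 and -0.25 to 0.41), and changes within them are not excluded. PLA2G6 shares 22.5% of its exonic bases with a gene on the other strand.

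**Figure D2:**
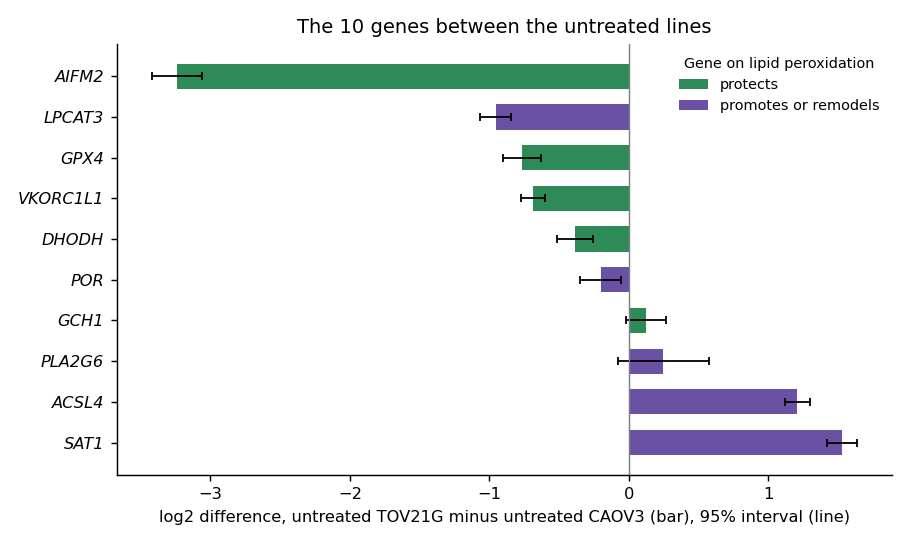
Log2 difference of each gene between untreated TOV21G and untreated CAOV3 with its 95% interval, coloured by role. AIFM2 extends to -3.24 and SAT1 to 1.53, and the intervals of GCH1 and PLA2G6 cross 0.

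Counted over the 10 members, ascites gave 0 higher and 1 lower in CAOV3 and 0 called in TOV21G, where 0.409% of all genes tested were called. In TOV21G 1 member, SAT1, had an unadjusted p under 0.05 in limma, as had 1615 of all 17616 genes tested. There edgeR and DESeq2 called 0 members. The 3 libraries of each group did not overlap for 3 members in CAOV3 (GCH1, DHODH and SAT1), where this held for 24.2% of all genes tested. In TOV21G it held for 1 member (SAT1) and for 11.1% of all genes. The median log2 fold change of the members was -0.03 in CAOV3 and -0.00 in TOV21G, and that of all genes -0.00 and -0.02.

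The test of the difference between the responses called 0 members by limma, edgeR and DESeq2, and 0 had an unadjusted p under 0.05 in limma. Among all genes tested 0.545% were called, and 2091 of 17616 had an unadjusted p under 0.05 in limma. The largest differences in size were GCH1 at 0.19 (interval -0.02 to 0.39), SAT1 at 0.13 and PLA2G6 at 0.13 (interval -0.33 to 0.59). GPX4 differed by -0.09 (interval -0.28 to 0.10), ACSL4 by 0.04 (interval -0.08 to 0.17) and VKORC1L1 by 0.00 (interval -0.12 to 0.13). The 2 responses and the comparison of untreated lines share the control libraries, so their values are set side by side and no agreement between them is counted.

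**Figure D3:**
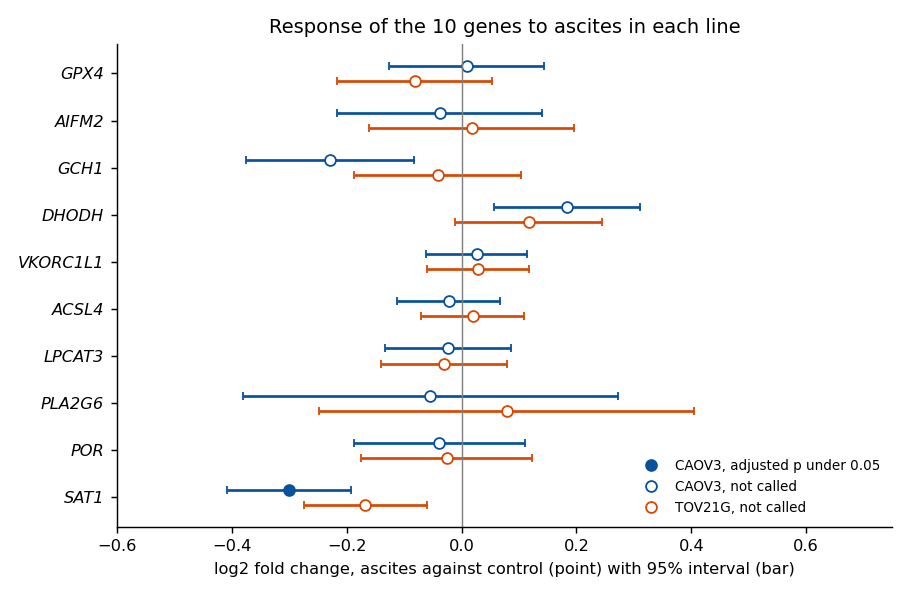
Log2 fold change of each gene with ascites, CAOV3 in blue and TOV21G in orange, with 95% intervals; filled points are called. The filled point is SAT1 in CAOV3 at -0.30, and all 20 intervals lie between -0.41 and 0.41.

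Levels of different genes were compared per kb of exon, over the union of annotated exons. In untreated CAOV3 GPX4 came first at 4108 normalised counts per kb, then SAT1 (1273), VKORC1L1 (808), LPCAT3 (638), POR (516), AIFM2 (418), ACSL4 (330.3), GCH1 (166), DHODH (111) and PLA2G6 (9.72). No neighbours in that order overlapped in their libraries. In untreated TOV21G SAT1 came first at 3679, then GPX4 (2418), ACSL4 (763), VKORC1L1 (502), POR (449.9), LPCAT3 (329), GCH1 (181), DHODH (84.8), AIFM2 (44.1) and PLA2G6 (11.6). VKORC1L1 and POR overlapped there. By this length the ascites groups had the order of their line's controls. With the longest transcript as the length, levels of some genes were over 1.5 times higher, such as GPX4 in untreated CAOV3 (7004) and SAT1 in untreated TOV21G (8098). POR then moved to the third place and LPCAT3 passed VKORC1L1 in both lines. In TOV21G the libraries of LPCAT3 and VKORC1L1 overlapped by that length, with and without ascites. DHODH (180.2) also passed GCH1 (142) in CAOV3 with ascites by that length, whereas GCH1 (167) and DHODH (159) overlapped in the controls.

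GPX4 and SAT1 ranked high among all genes, and AIFM2 moved from the upper part of the range to below the middle. Per kb, GPX4 exceeded 98.7% of 17597 genes tested in untreated CAOV3 and 97.9% in TOV21G, and SAT1 94.2% and 98.8%. AIFM2 exceeded 80.1% and 37.8%, ACSL4 75.8% and 89.9%, and PLA2G6 19.6% and 22.0%.

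**Figure D4:**
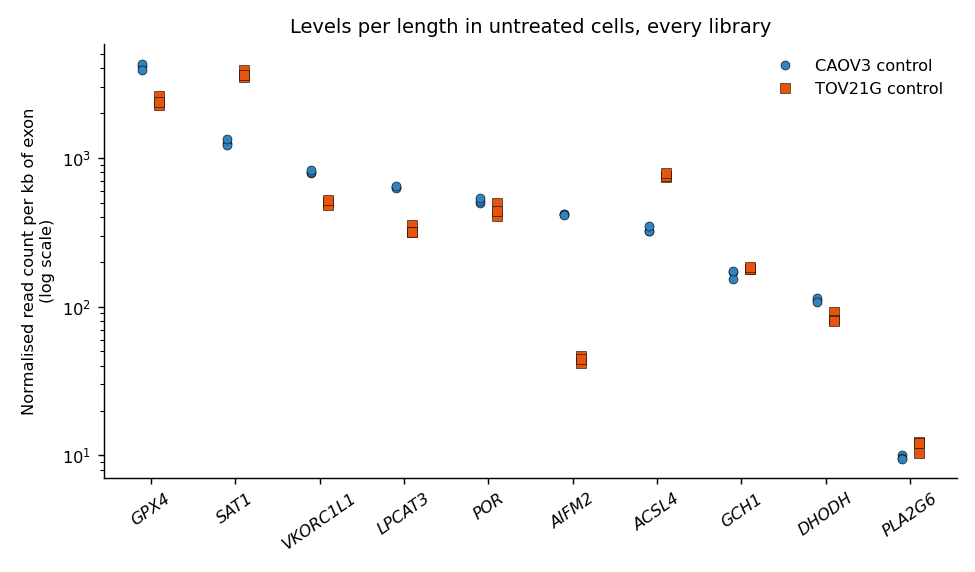
Normalised read count per kb of exon in each untreated library, on a log axis, ordered by the CAOV3 mean. GPX4 leads in CAOV3 at 4108 and SAT1 in TOV21G at 3679, while AIFM2 lies near 418 in CAOV3 and 44.1 in TOV21G.

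Ratios within a library set a promoting gene against a protecting one, with both taken per kb. ACSL4 over GPX4 was 0.0746 to 0.0897 in CAOV3 controls and 0.285 to 0.335 in TOV21G controls. ACSL4 over AIFM2 was 0.763 to 0.841 and 16.4 to 17.9, so ACSL4 lay below AIFM2 in each untreated CAOV3 library and far above it in each TOV21G one. SAT1 over GPX4 was 0.285 to 0.344 in CAOV3 controls and 1.50 to 1.54 in TOV21G controls, and with ascites 0.244 to 0.255 and 1.37 to 1.50. ACSL4 over ACSL3, the sister enzyme that activates monounsaturated fatty acids, was 0.406 to 0.418 in CAOV3 controls and 0.488 to 0.502 with ascites. In TOV21G it was 1.87 to 2.09 and 2.34 to 2.53. Ascites libraries were above all controls in both lines for this last ratio, in which ACSL3 was the gene that fell. These ratios are descriptions and were given no test.

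The TOV21G libraries of 1 group differed more among themselves than the CAOV3 libraries for 7 of the 10 genes, with VKORC1L1 nearly equal in both (0.0452 against 0.0446). This was not particular to the members. Over all genes with at least 20 reads in a pair of replicates, chi-square per degree of freedom was 1.81 to 8.38 in CAOV3 and 3.89 to 22.6 in TOV21G. The SD of the log2 values within a group was 0.130 in TOV21G against 0.043 in CAOV3 for POR, 0.108 against 0.055 for GPX4 and 0.088 against 0.023 for LPCAT3. It was larger in CAOV3 for GCH1 (0.087 against 0.065), ACSL4 (0.051 against 0.040) and PLA2G6 (0.195 against 0.0995). DHODH, GPX4, LPCAT3, POR and SAT1 were each highest in TOV21G control 1 and again in TOV21G ascites 2, while AIFM2 was lowest in both. Deviations shared by these 2 libraries were not particular to the members either. Over 11886 genes with a mean of at least 100, their deviations from the group means had a Pearson correlation of 0.455. The nuclear RNA KCNQ1OT1 was also lowest of its group in these 2 libraries. It had 95.4, 656 and 234 normalised counts in the TOV21G controls and 731, 235 and 1511 with ascites, against 614 to 813 in CAOV3. MALAT1, another nuclear RNA, had 14363, 36224 and 22591 in the controls and 37574, 21436 and 66859.8 with ascites. Mitochondrial genes made up 2.18%, 1.77% and 2.35% of the counts in the controls and 1.61%, 2.71% and 1.49% with ascites. The part of these values in the results was not tested across the members. With TOV21G control 1 and ascites 2 left out, an alternative chosen after seeing the data, SAT1 stayed called in CAOV3, DHODH was called there as well (log2 0.18, limma adjusted p 0.0416), and 0 members were called in TOV21G.

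**Figure D5:**
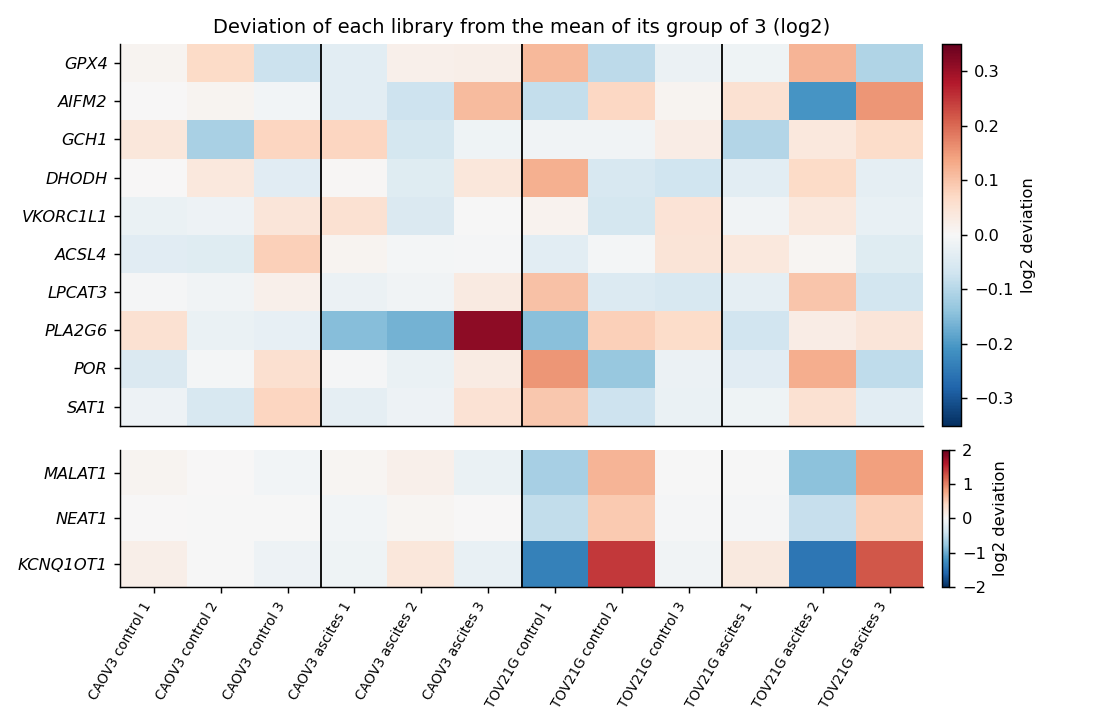
Log2 deviation of each library from the mean of its group of 3, for the 10 genes (upper panel, colour scale to 0.35) and 3 nuclear RNAs (lower panel, colour scale to 2). Control 1 and ascites 2 of TOV21G are the highest of their groups for GPX4, DHODH, LPCAT3, POR and SAT1 and the lowest for KCNQ1OT1.

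The other genes of the pathway were followed in 11 lists with 104 members, of which 96 were tested. With ascites 0 were higher and 6 lower in CAOV3, and 0 higher and 2 lower in TOV21G. Of all genes tested 1.73% were called in CAOV3 (1.1% lower) and 0.409% in TOV21G (0.267% lower). The falls lay in the lists of fatty acid metabolism and of iron handling. All lists were chosen with earlier results of these data known, so their counts beside the shares of all genes are descriptions only. Over all 96 the median log2 fold change was 0.00 in CAOV3 and -0.05 in TOV21G, against -0.00 and -0.02 over all genes tested.

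In the list of fatty acid activation, remodelling and ether lipids, 4 of 18 tested genes fell in CAOV3 and 2 in TOV21G, and 0 rose, where 1.1% and 0.267% of all genes tested were called lower. SCD, the desaturase that makes monounsaturated fatty acids, fell from 43678 ± 1479 to 32399 ± 512 in CAOV3 (SD, n = 3, log2 -0.43, limma adjusted p 0.000737). In TOV21G it fell from 1681 ± 76.8 to 859 ± 61.6 (log2 -0.97, adjusted p 2.16e-06). On the log2 scale the fall was larger there (difference -0.54, adjusted p 0.00664). That difference lost its call with the replicate number as a block in the fit (limma adjusted p 0.0827). ACSL3 fell in CAOV3 from 5800.5 ± 305 to 4756 ± 95.2 (log2 -0.29, adjusted p 0.00805). The TOV21G libraries fell from 2746 ± 119.5 to 2293 ± 105 (log2 -0.26, adjusted p 0.0378). The ACSL3 call in TOV21G was lost when any of 8 libraries was left out (highest adjusted p 0.161), and that in CAOV3 without CAOV3 ascites 2 (adjusted p 0.0501). FADS1 and FADS2, the desaturases that make polyunsaturated fatty acids, fell in CAOV3 by 0.32 and 0.56 on the log2 scale (adjusted p 0.000614 and 0.000334). Their TOV21G values were -0.15 and -0.23, not called (adjusted p 0.138 and 0.198), although DESeq2 called both as lower there. The FADS1 and FADS2 responses did not differ detectably between the lines (0.16 and 0.33, adjusted p 0.275 and 0.162). ACSL4 and LPCAT3, which act on the same pool, showed no call in these comparisons.

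In iron handling 2 of 11 genes fell in CAOV3 by limma, edgeR and DESeq2, where limma called 1.1% of all genes tested lower. In TOV21G limma and edgeR called 0 and DESeq2 called 2 as lower, TFRC and HMOX1. There 5 had an unadjusted p under 0.05 in limma, as had 1615 of all 17616 genes tested. TFRC, the transferrin receptor that brings iron into the cell, fell from 19219 ± 750.0 to 13666 ± 145 in CAOV3 (SD, n = 3, log2 -0.49, limma adjusted p 6.06e-05). In TOV21G its value was -0.16 (adjusted p 0.161). The responses of the lines were called different (0.33, adjusted p 0.0264), a call lost when any of 8 libraries was left out (highest adjusted p 0.0943). SLC11A2, an iron transporter, fell in CAOV3 by 0.23 (adjusted p 0.00440) and stood at -0.09 in TOV21G (adjusted p 0.468), with no detectable difference between the lines (0.14, adjusted p 0.323). In the lists of glutathione supply (9 tested), selenoprotein synthesis (9), tetrahydrobiopterin (6), coenzyme Q (15), vitamin K (3), pyrimidine synthesis (2), phospholipases (6), oxygenases and electron carriers (7) and polyamines (10), limma called 0 genes with ascites in either line. Among these 67 genes 8 had an unadjusted p under 0.05 in CAOV3 and 6 in TOV21G. Of all 17616 genes tested 2280 and 1615 had one. In TOV21G edgeR and DESeq2 called 0 of the 67. In CAOV3 edgeR called 1, SMOX, and DESeq2 called 2, SMOX and SLC3A2, all as higher. For the polyamine list around SAT1, the spermine oxidase SMOX stood at 0.18 in CAOV3 (limma adjusted p 0.0995) and 0.03 in TOV21G.

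Between the untreated lines 39 of the 96 genes were higher in TOV21G and 47 lower, where 82.2% of all genes tested were called. In glutathione supply 4 were higher and 5 lower. GCLM and GCLC, the subunits of the rate-limiting enzyme, differed in opposite directions, by 1.65 and -1.25, and CBS had 64.1 ± 4.69 in TOV21G controls against 0 in 2 CAOV3 controls and 1.13 in the third. In selenoprotein synthesis 5 were higher and 3 lower, with TRNAU1AP at 1.25, SCLY at -1.71 and TXNRD1 at -1.31. Of the tetrahydrobiopterin genes around GCH1 3 were higher and 3 lower, with PTS at 1.01, SPR at -0.85 and GCHFR, the regulator that inhibits GCH1, at -0.91.

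Coenzyme Q genes, which feed AIFM2 and DHODH, were 7 higher and 5 lower of 15. NQO1, another quinone reductase, was 6.63-fold higher in TOV21G (log2 2.73, limma adjusted p 4.67e-14), opposite to AIFM2. HPD, an enzyme of tyrosine breakdown that was counted in this list, differed by 3.79, from low values (1.46 against 27.9). COQ8A differed by -1.83. Of the vitamin K genes VKORC1 (0.90) and GGCX (0.47) were higher, opposite to VKORC1L1. Both pyrimidine genes, CAD (-0.73) and UMPS (-0.38), were lower, as was DHODH.

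The fatty acid list had 5 higher and 11 lower of 18, led by ACSL1 (5.15), SCD (-4.70) and ACSL5 (-2.81). Phospholipases were 2 higher and 4 lower, with PLA2G4A at -6.48 (1187 ± 72.6 against 12.4 ± 1.81), PLA2G4C at -2.18 and PLA2G15 at 0.87. Oxygenases and electron carriers were 4 higher and 3 lower of 7 tested, with ALOXE3 at -4.20, CYB5A at 1.48 and ALOX12B at 0.80. ALOXE3 and ALOX12B had means of at most 29.8 normalised counts in the control groups. ALOX5 did not pass the filter on low values, with means of 0.378 normalised counts in CAOV3 controls, 3.91 in TOV21G controls and 7.33 in TOV21G with ascites. ALOX12, ALOX15, ALOX15B, NOX1, NOX4, CYBB and ACSL6 were not analysed here.

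Polyamine genes were 3 higher and 6 lower of 10, with SMOX at 1.03, ODC1, the first enzyme of synthesis, at -0.996 and its inhibitor OAZ1 at -0.91, beside the higher SAT1. Iron genes were 4 higher and 5 lower of 11. HMOX1, which frees iron from heme, was 20.2-fold higher in TOV21G (162 ± 4.17 against 3298 ± 252, SD, n = 3, log2 4.34, limma adjusted p 1.45e-14), ACO1 differed by 2.75 and STEAP3 by -2.20.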

How the data were processed

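Total RNA of 12 cell line libraries was sequenced, and the authors deposited for each a normalised read count per gene, treated here as a signal that is never negative. Per the submitters' processing notes Trim Galore, cutadapt, STAR, HTSeq and DESeq were used. Genome build, annotation and strandedness are not given in the sources used here. In each library 100% of values were whole multiples of 1 step (within 0.01 reads), so whole reads were recovered, and the steps matched DESeq2 size factors over all 12 libraries.

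Of 19251 listed genes, 17616 with a value of at least 10 in at least 3 libraries were tested with limma 3.58.1 in R 4.3.3 (lmFit, eBayes with trend) on log2(value + 1), with 12 libraries in 1 fit (8 residual degrees of freedom). P-values are two-sided, Benjamini-Hochberg adjusted within a contrast. A fold change on this scale understates that of low genes. The fit was tested on simulated counts with changes set only in CAOV3 with ascites and the same dispersion for all genes. That test gives no measure of what would be found in TOV21G. Replicates differed by more than sampling of reads (chi-square per degree of freedom 1.81 to 22.6). Alternatives were edgeR 4.0.16 and DESeq2 1.42.0 on the recovered reads, TMM scaling, a pseudocount of 5, no filter, only the 2 groups compared, a replicate block and leaving out libraries.

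The members and lists were chosen with earlier results of these data known. All members are named. Of the lists, the genes called with ascites were named (at most 5 a list), and up to 3 a list with the largest difference between the untreated lines.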

Additional observations from a re-analysis of the deposited data

Results flagged for a closer look

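The ascites response differed between the lines for 2 pathway genes, by the test of the difference itself (TOV21G minus CAOV3, limma). SCD differed by -0.54 on the log2 scale (adjusted p 0.00664), with a larger fall in TOV21G (-0.97) than in CAOV3 (-0.43). TFRC differed by 0.33 (adjusted p 0.0264), with a larger fall in CAOV3 (-0.49) than in TOV21G (-0.16). The TFRC difference lost its call when any of 8 libraries was left out (highest adjusted p 0.0943), while that of SCD kept it whichever of the 12 was left out (highest adjusted p 0.0286). Both lost it with the replicate number as a block in the fit (limma adjusted p 0.0827 for SCD and 0.343 for TFRC).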

How the results depend on the processing

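The number of members called with ascites in CAOV3, 1, was 0 with the replicate block and 2 without TOV21G control 1 and ascites 2, the alternative chosen after seeing the data. The same-numbered libraries did not deviate together (correlations of -0.42 to 0.07 over both lines), so no pairing by number was seen in these values. Whether same-numbered libraries were prepared together cannot be told from them. With the replicate block SAT1 had an adjusted p of 0.0573. The same block took ACSL3 to 0.0823 in CAOV3 and 0.272 in TOV21G, SLC11A2 to 0.0909, and the differences of SCD and TFRC to 0.0827 and 0.343.

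Counts of called genes moved more. In CAOV3 the 305 became 511 with edgeR, 507 with DESeq2, 116 with the block and 620.0 without those TOV21G libraries, and 162 to 345 leaving out 1 library. In TOV21G the 72 became 114, 150.0 and 13 by the first 3 and 8 with only its groups in the fit, and 24 to 137 leaving out 1 library. The 96 differences became 148, 212 and 9, 151 with TMM scaling, 188 without those libraries, and 35 to 147 leaving out 1 library. With only the TOV21G groups in the fit, ACSL3 had an adjusted p of 0.428 there.

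Directions turned only for values near 0 that were not called. POR in TOV21G was 4.89e-05 with TMM scaling, and the LPCAT3 difference 0.0201 with TMM scaling and 0.0205 with edgeR. Without those TOV21G libraries ACSL4 and PLA2G6 in TOV21G were -0.00246 and -0.00777 and the VKORC1L1 difference -0.00928. Leaving out 1 library, CAOV3 values ran from -0.0287 to 0.0417 (GPX4), -0.0435 to 0.0186 (ACSL4) and -0.211 to 0.0284 (PLA2G6). TOV21G values ran from -0.0595 to 0.121 (AIFM2), -0.0743 to 0.0093 (GCH1), -0.00155 to 0.0521 (VKORC1L1), -0.0789 to 0.0213 (LPCAT3) and -0.0924 to 0.0512 (POR). Differences ran from -0.0216 to 0.159 (AIFM2), -0.0279 to 0.0286 (VKORC1L1), -0.0557 to 0.0445 (LPCAT3) and -0.0538 to 0.0899 (POR). The cause of these shifts was not tested.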
